A study of Homo sapiens with 6 samples.

Results

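The subject is a group of 10 genes of chemokines and inflammatory cytokines in VCaP, a human prostate cancer cell line: CXCL1, CXCL2, CXCL3, CXCL8, CXCL16, CCL20, IL18, IL32, LIF and the receptor gene CXCR4. They were taken by symbol from the 58735 genes of the deposited count table. The list was chosen by someone who had the measured differences between shNEDD9 and shNTC of these same libraries in view, so the genes' values in that comparison are a description, with no test. Stable cells carrying a short hairpin RNA (shRNA) against NEDD9, called shNEDD9, were compared with cells carrying a non-targeting hairpin, called shNTC, with 3 libraries in each group. Both groups were VCaP cells infected with an shRNA and kept in DMEM with 10% FBS. The hairpin sequence, the number of hairpins and whether the lines were pools or single clones were not stated in any source used here. NEDD9 encodes a scaffold protein of focal adhesions.

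Chemokines are small secreted proteins that draw leukocytes along a gradient by way of G protein-coupled receptors. CXCL1, CXCL2, CXCL3 and CXCL8 lie in 1 cluster on chromosome 4, signal mainly through CXCR2 and attract neutrophils, and CXCL8 also binds CXCR1. CCL20 is the ligand of CCR6, and CXCL16 is a membrane-bound ligand of CXCR6 that the protease ADAM10 can shed. IL18 is a cytokine of the IL-1 family, IL32 an inflammatory cytokine, LIF a member of the IL-6 family that signals through LIFR and the shared subunit IL6ST to STAT3, and CXCR4 the receptor of CXCL12. Epithelial cells switch on several of these genes through NF-kB, often together with AP-1 or C/EBP factors, when receptors for IL-1, IL-17, TNF or bacterial products are engaged. Their short-lived mRNAs are targets of proteins that bind AU-rich sequences, such as the product of ZFP36.

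The bases just before the transcription start are shown first, as a description. A link between the promoter letters and the levels was not tested. RefSeq promoters (GRCh38.p14) were on hand for 7 of the 10 genes, and CXCL16, IL18 and LIF had no entry. Each run below holds the 130 bases before the RefSeq start, 5′ to 3′ on the strand of the gene. Capitals mark matches to the kappaB motif, the site that NF-kB binds, or to the 9-base word GGAATTTCC. CXCL5, the cluster gene between CXCL1 and CXCL3, is added for comparison. The windows are chr4:73869263-73869392 (plus strand) for CXCL1, chr4:74099196-74099325 (minus) for CXCL2, chr4:74038690-74038819 (minus) for CXCL3, chr4:73740439-73740568 (plus) for CXCL8, chr4:73998678-73998807 (minus) for CXCL5 and chr2:227813712-227813841 (plus) for CCL20.
CXCL1: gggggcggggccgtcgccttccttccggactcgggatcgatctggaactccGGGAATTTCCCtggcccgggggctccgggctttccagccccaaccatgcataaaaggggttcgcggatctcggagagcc
CXCL2: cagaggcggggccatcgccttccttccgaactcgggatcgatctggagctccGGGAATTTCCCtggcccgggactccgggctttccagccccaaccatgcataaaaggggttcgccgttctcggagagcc
CXCL3: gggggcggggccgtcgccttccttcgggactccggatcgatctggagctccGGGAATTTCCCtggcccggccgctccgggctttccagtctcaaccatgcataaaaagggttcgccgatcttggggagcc
CXCL8: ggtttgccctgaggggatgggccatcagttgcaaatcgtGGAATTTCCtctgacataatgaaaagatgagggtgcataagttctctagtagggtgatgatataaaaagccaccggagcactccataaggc
CXCL5: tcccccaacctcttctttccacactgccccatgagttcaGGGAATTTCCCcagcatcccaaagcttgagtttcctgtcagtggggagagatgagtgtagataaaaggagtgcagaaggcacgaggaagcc
CCL20: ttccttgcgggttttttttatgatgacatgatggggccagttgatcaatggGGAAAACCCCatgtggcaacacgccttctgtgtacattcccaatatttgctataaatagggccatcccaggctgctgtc

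Searched on both strands of the 250 bases before the start, the word GGAATTTCC occurred in 4 of the 7 genes with a sequence: CXCL1, CXCL2, CXCL3 and CXCL8. It occurred in 0.502% of the 27305 genes with a promoter in the table, each gene counted once. It lay at positions -78 to -70 in CXCL1, -77 to -69 in CXCL2, -78 to -70 in CXCL3 and -91 to -83 in CXCL8, counted backwards from the start site. The kappaB motif, which overlaps that word in the first 3 of these promoters, occurred in 5 of the 7 (CXCL1, CXCL2, CXCL3, CCL20 and the upstream promoter of IL32) and in 6.28% of all genes. In CXCL8 the word stood without the full motif. CXCL6, a cluster gene outside the group, held both the word and the motif. It had only 2 counts in shNTC and 0 in shNEDD9. TGANTCA, the AP-1 word, occurred in CXCL8 alone of the 7, at -137 to -131, and in 8.06% of all genes. TATAAA occurred in CXCL8, CCL20 and CXCR4 and in 13.05% of all genes, and TTNNGNAA, a C/EBP word, in CXCL2 and CXCR4 and in 38.1%. These are matches of letters and not measured binding.

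CXCL1, CXCL2 and CXCL3 are near-copies of each other, which bears on their counts. Over the 130 printed bases CXCL1 shared 93.8% of aligned positions with CXCL2 and 91.5% with CXCL3, against 47.9% with CXCL8. Over their 324 coding bases the identity was 93.5% for CXCL1 and CXCL2, 90.7% for CXCL1 and CXCL3 and 94.4% for CXCL2 and CXCL3. Of all stretches of 50 bases in their GENCODE transcripts, 4.81% in CXCL1, 12.5% in CXCL2 and 6.01% in CXCL3 also occurred in another chemokine gene of the cluster, and none did in CXCL8 or CXCL5. Reads from such stretches may have been dropped or split by the authors' counting, so the levels of CXCL2 and CXCL3 are uncertain.

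Libraries held 3217276 to 9902002 counts. Levels are in CPM, the count scaled by library size with TMM factors. The floor of 3 counts comes to 0.303 to 0.932 CPM in a single library, and 0.176 CPM over the shNTC and 0.126 CPM over the shNEDD9 libraries together. Floors and the 95% intervals below cover counting error only. NEDD9 itself stood at 361.1, 338.3 and 364.3 CPM in shNTC and at 136.7, 137.5 and 135.5 CPM in shNEDD9, lower in every library labelled shNEDD9 (354.6 ± 14.2 against 136.6 ± 1.03 CPM, SD, n = 3 each). The prostate markers of VCaP were present in every library (10 of 10, summed level 6181 to 6253 CPM in shNTC and 6413 to 6456 CPM in shNEDD9). Of the leukocyte markers, CD2, CD3E, FCGR3A and TYROBP were at 0 in all 6 libraries. The summed level of the leukocyte list was 19.5 to 26.0 CPM in shNTC and 6.19 to 7.44 CPM in shNEDD9, nearly all of it from LYZ and CD14. Without these the sum was 0.936 to 1.61 and 0.502 to 1.14 CPM. Of these 2 genes only LYZ fell (log2 fold change -3.40), and it passed the count filter through shNTC alone. CD14 stood at 3.74 ± 0.850 CPM in shNTC and 4.68 ± 0.401 CPM in shNEDD9 and was not called (edgeR adjusted p = 0.0934). The part of LYZ- and CD14-bearing cells in the results was not tested. Fibroblast markers (10, with FAP and THY1 at 0) summed to 27.3 to 35.4 CPM in shNTC and 47.7 to 55.8 CPM in shNEDD9. LUM, which encodes lumican, carried that rise (19.1 ± 0.571 to 45.1 ± 3.17 CPM), while the collagen gene COL1A1 fell (7.21 ± 2.25 to 4.62 ± 0.639 CPM, edgeR adjusted p = 0.0106, and 0.112 without shNTC replicate 2) and COL1A2 and COL3A1 had 31 and 14 counts in shNTC against 8 and 5. The summed level of endothelial markers (8, with CDH5 at 0) was 10.3 to 11.7 and 9.55 to 11.04 CPM. In bulk RNA, fewer cells with a transcript and less transcript per cell cannot be told apart.

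The neutrophil-attracting chemokines of chromosome 4 were those that stood lower in shNEDD9, with CCL20 and IL32. CXCL8, CXCL1 and CXCL3 were 7.62-fold, 11.8-fold and 9.82-fold lower, CCL20 on chromosome 2 was 5.35-fold lower, and CXCL16 stood at much the same level in both groups. The remaining genes (CXCL2, CXCR4, IL18, IL32 and LIF) had too few counts to enter the fit. Of the 5 that entered, 4 were past the threshold, all lower, where 71.4% of the 13958 genes tested were past it in either direction and 35.9% were lower. All 4 were at least 2-fold lower. Of the 13958 genes tested, 9.22% both passed the threshold and were at least 2-fold lower. The libraries separated by group without overlap in 4 of the 5, and in 6 of the 10 with the low-count genes CXCL2 and IL32, where 71.8% of all genes tested had no overlap. Nothing is read from these counts, since the same comparison chose the genes. In CXCL1, CXCL3 and CCL20 the shNTC libraries alone carried the gene over the count filter, so that these had to differ to be kept.

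CXCL8 (ENSG00000169429, GRCh38 chromosome 4, 73740506 to 73743716) was the chemokine gene of the cluster with most counts. It had 184, 77 and 178 counts in shNTC and 25, 20 and 35 in shNEDD9, or 24.7, 24.1 and 27.8 against 4.18, 2.54 and 3.52 CPM. The lowest shNTC library thus stood above the highest shNEDD9 library, and the spread within each group was small beside the gap between them (25.5 ± 1.97 against 3.41 ± 0.829 CPM, SD, n = 3 each; log2 fold change -2.93, SE 0.15).

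CXCL1 (ENSG00000163739, chromosome 4, 73869393 to 73871242), a melanoma growth-stimulating chemokine, had 70, 38 and 64 counts in shNTC and 4, 12 and 4 in shNEDD9. In CPM these were 9.38, 11.9 and 9.98 against 0.669, 1.52 and 0.402. The groups did not overlap, but shNEDD9 replicate 2 held most of the counts left in its group. The log2 fold change was -3.56 (SE 0.27), and without that library CXCL1 was 19.3-fold lower.

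CXCL3 (ENSG00000163734, chromosome 4, 74036589 to 74038807) had 20, 5 and 20 counts in shNTC and 1, 2 and 3 in shNEDD9, or 2.46 ± 0.801 against 0.241 ± 0.068 CPM (SD, n = 3 each). Its groups did not overlap either, and its error was the widest of the fitted genes here (log2 fold change -3.30, SE 0.50). CXCL2 (ENSG00000081041, chromosome 4, 74097035 to 74099293) had 4, 1 and 1 counts in shNTC and 0 in every shNEDD9 library. Against the floor of 3 counts over the shNEDD9 group CXCL2 was at least 2.79-fold lower if its shNTC counts are taken as exact. With their counting error included, the interval of the ratio reached up to 0.609, which allows a decrease as small as 1.64-fold.

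Summed over these 4 genes, the level was 38.7 ± 2.01 CPM in shNTC and 4.52 ± 0.437 CPM in shNEDD9 (SD, n = 3 each). CXCL8 made up 66.2%, 63.6% and 67.7% of the summed counts in the shNTC libraries and 83.3%, 58.8% and 83.3% in the shNEDD9 libraries. Over the groups its share was 66.3% (95% exact binomial interval 62.6 to 69.9%) in shNTC and 75.5% (66.2 to 83.3%) in shNEDD9. The share of CXCL1 was 26.0% (22.7 to 29.5%) and 18.9% (11.9 to 27.6%). The difference in shares was not tested. Per kilobase of exon, on the RPKM scale, CXCL8 (11.2 ± 0.866) and CXCL1 (8.04 ± 1.02) led in shNTC, with CXCL3 (1.11 ± 0.361) and CXCL2 (0.223 ± 0.127) far below them (SD, n = 3). In shNEDD9 the order was the same, at 1.50 for CXCL8, 0.667 for CXCL1, 0.109 for CXCL3 and 0 for CXCL2.

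CCL20 (ENSG00000115009, chromosome 2, 227805739 to 227817564), which draws CCR6-bearing lymphocytes and dendritic cells, had 23, 12 and 20 counts in shNTC and 3, 5 and 6 in shNEDD9. Its level was 3.08, 3.76 and 3.12 CPM against 0.502, 0.634 and 0.603 CPM. All shNTC libraries lay above all shNEDD9 libraries, on few counts (log2 fold change -2.42, SE 0.39).

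**Figure D1:**
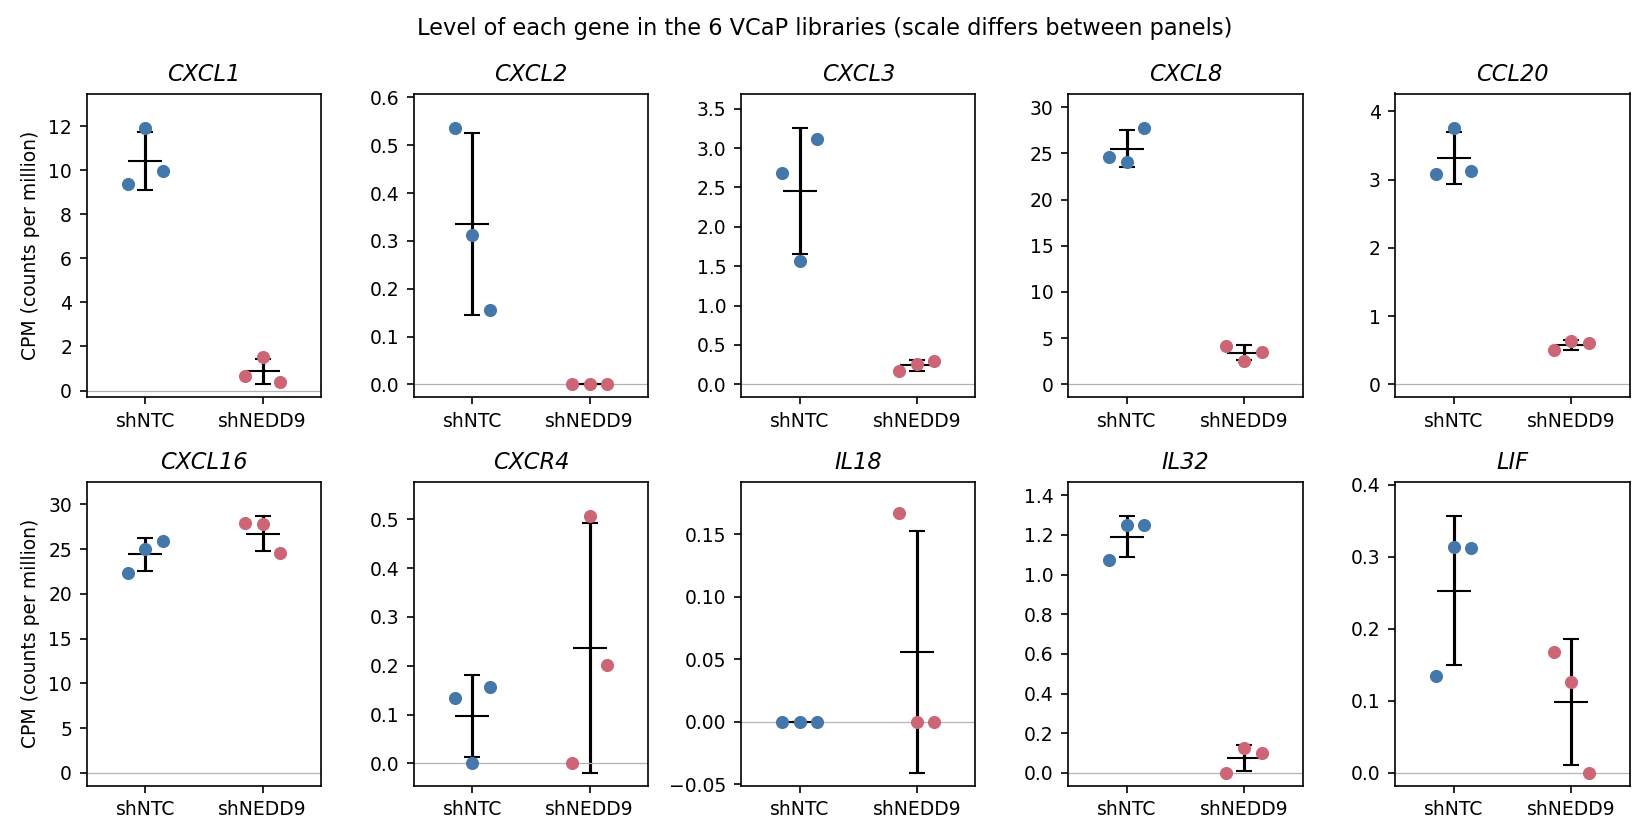
Level of each of the 10 genes in CPM (counts scaled by library size; vertical axis, own scale per panel) in the 3 shNTC and 3 shNEDD9 libraries; points are libraries, the short horizontal line is the mean and the bars are ± SD. CXCL1, CXCL3, CXCL8 and CCL20 show no overlap between the groups, CXCL16 lies between 22.4 and 27.9 CPM in all 6 libraries, and CXCL2, CXCR4, IL18 and LIF reach at most 0.536 CPM.

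CXCL16 (ENSG00000161921, chromosome 17, 4733526 to 4739922) was the ligand gene with no clear difference. Its levels of 22.4, 25.1 and 25.9 CPM in shNTC and 27.9, 27.8 and 24.5 CPM in shNEDD9 overlapped, and the ratio of the groups was 1.09 with a counting interval of 0.964 to 1.24 (413 and 630 counts). Per kilobase of exon it stood at 8.75 ± 0.656 RPKM in shNTC, below CXCL8 and within the spread of CXCL1, and at 9.57 ± 0.688 RPKM in shNEDD9, above all the other members (SD, n = 3 each). Its receptor gene CXCR6, not a member, had 11.6 ± 0.603 CPM in shNTC and 8.41 ± 0.593 CPM in shNEDD9 and fell by 0.49 on the log2 scale (SE 0.15, Benjamini-Hochberg adjusted p = 0.0023 by edgeR's quasi-likelihood test). ADAM10, the protease that sheds CXCL16, fell by 1.04 (SE 0.04, edgeR adjusted p = 2.82e-129), from 199.9 ± 15.7 to 98.7 ± 3.13 CPM. ADAM17, a related sheddase, stood at 27.5 ± 3.21 and 29.2 ± 3.33 CPM and was not called (edgeR adjusted p = 0.337).

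The receptors of the other chemokines were hardly present. CXCR1, CXCR2 and CCR6 had 0 counts in all 6 libraries, which allows at most 0.176 CPM over shNTC and 0.126 CPM over shNEDD9. CXCR4 (ENSG00000121966, chromosome 2, 136114349 to 136118165) had 1, 0 and 1 counts in shNTC and 0, 4 and 2 in shNEDD9. The groups overlapped, and the ratio of 2.15 had a counting interval of 0.384 to 21.8. Its ligand gene CXCL12 had a single count in the whole table. ACKR3, the atypical receptor that also binds CXCL12, was well expressed at 28.4 ± 0.671 and 30.7 ± 0.512 CPM, and its log2 fold change of 0.13 did not pass (edgeR adjusted p = 0.199). Over the 22 listed chemokine receptors other than CXCR4, 8 had 0 counts and only CXCR6 and ACKR3 were tested.

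Of the cytokines, IL32 was the only one with more than a handful of reads. IL32 (ENSG00000008517, chromosome 16, 3065297 to 3082192) had 8, 4 and 8 counts in shNTC and 0, 1 and 1 in shNEDD9, or 1.19 ± 0.103 against 0.0758 ± 0.0669 CPM (SD, n = 3 each). The groups did not overlap, and the ratio of the groups was 0.0716 (counting interval 0.00812 to 0.295). LIF (ENSG00000128342, chromosome 22, 30240447 to 30246851) had 4 counts over shNTC and 2 over shNEDD9, with overlapping libraries and a ratio of 0.358 (0.0324 to 2.5). IL18 (ENSG00000150782, chromosome 11, 112143251 to 112164117) had 1 count in 1 shNEDD9 library and none elsewhere, so both groups were at or under the floor. No difference in LIF, IL18 or CXCR4 was detectable at this depth.

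**Figure D2:**
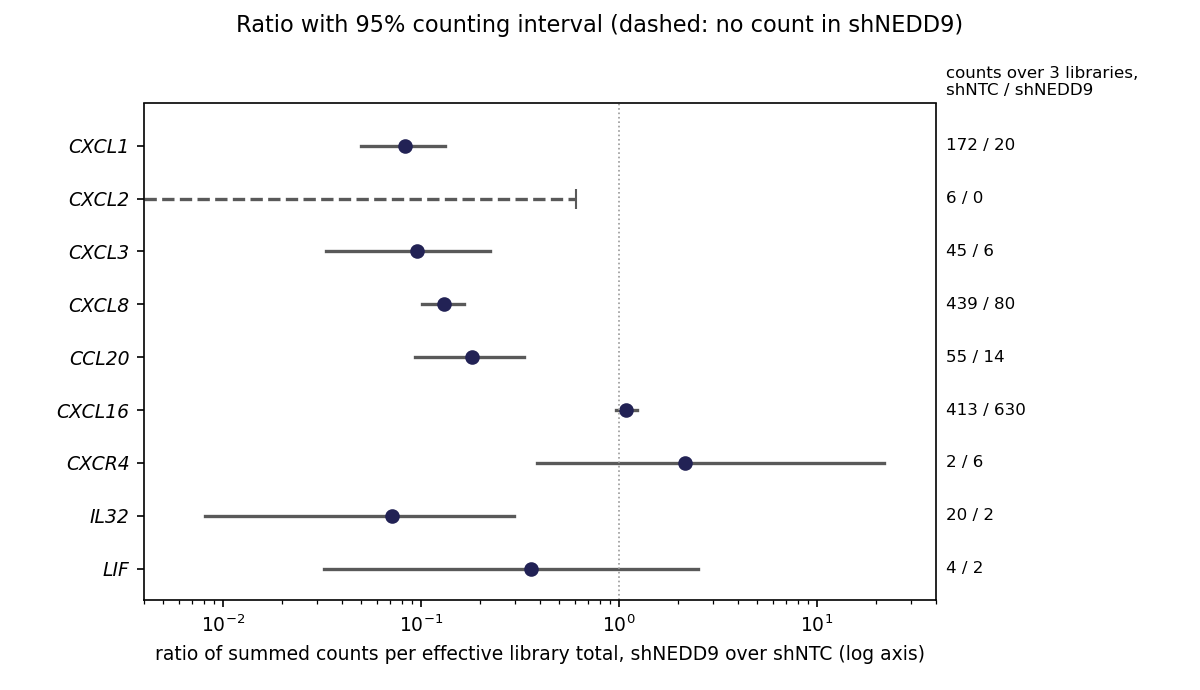
Ratio of the summed counts per effective library total, shNEDD9 over shNTC (horizontal log axis), with its 95% counting interval as a line; IL18 (1 count) is left out and CXCL2, with 0 counts in shNEDD9, is drawn as a dashed line up to 0.609. The intervals of CXCL1, CXCL2, CXCL3, CXCL8, CCL20 and IL32 lie below 1, and those of CXCL16, CXCR4 and LIF span it. They leave out the spread between libraries and are not a test, since the same comparison chose the genes.

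Although LIF was near the floor, much of the machinery that receives it was expressed and lower in shNEDD9. STAT3, the transcription factor of the pathway, fell by 1.75 on the log2 scale (SE 0.04), from 268.9 ± 15.6 to 79.5 ± 4.09 CPM, and IL6ST fell by 1.23 (SE 0.04), from 249.6 ± 11.1 to 107.5 ± 1.41 CPM (n = 3 each, edgeR quasi-likelihood test). LIFR fell by 0.15 (edgeR adjusted p = 0.0334), but its libraries overlapped (57.2 ± 2.24 against 51.7 ± 3.96 CPM, n = 3 each). Its call was lost in 6 of 13 alternatives, where its adjusted p ranged up to 0.202. BCL6, a transcriptional repressor, rose 3.75-fold. SOCS3, the feedback inhibitor of the pathway, had only 12 counts in shNTC and 7 in shNEDD9. For IL18, the receptor gene IL18R1 fell by 1.33 (SE 0.37, edgeR adjusted p = 0.000567) on 42 and 23 counts, and only shNTC carried it over the count filter. Without shNEDD9 replicate 2 its log2 fold change was -2.08, and without shNEDD9 replicate 3 it was -0.83 and not called (edgeR adjusted p = 0.0579). IL18BP, the secreted inhibitor, was not called (edgeR adjusted p = 0.131), but passed without shNTC replicate 3 (log2 fold change -0.59, edgeR adjusted p = 0.0454). CASP1, which matures IL18, had 0 counts, while CASP4 of the same caspase family was 5.46-fold lower. Of the 19 tested genes of this receptor and signalling list, 2 rose (10.5%, against 35.5% of all genes tested). A further 11 fell (57.9%, against 35.9%), and the median log2 fold change was -0.33. In either direction, the share called was near the 71.4% of all genes tested. Of the 4 tested genes of maturation and release, DPP4 rose and ADAM10 and CASP4 fell.

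The genes around the chromosome 4 cluster were looked at next, since 4 members share it. Within 1 Mb of the span from CXCL8 to CXCL2 lay 41 further annotated genes, of which 23 had any counts and 9 were tested. Of these 9, 6 were lower (66.7%) and 1 was higher (11.1%), with a median log2 fold change of -1.06, where 35.9% of all genes tested were lower and 35.5% higher. CXCL5, a neutrophil chemokine gene 129.4 kb from the CXCL1 start, had 35, 19 and 37 counts against 4, 7 and 7 and fell by 2.79 (SE 0.32, edgeR adjusted p = 1.27e-17). MTHFD2L, a mitochondrial folate enzyme gene just beyond CXCL2, had 39, 12 and 30 counts against 0, 2 and 3 and fell by 4.38 (SE 0.44, edgeR adjusted p = 2.09e-23). CXCL5 and MTHFD2L passed the count filter through shNTC alone, so that they had to differ to be tested. RASSF6, a Ras-association domain gene on the CXCL8 side, fell by 1.99 (SE 0.06), from 120.8 ± 3.86 to 30.5 ± 1.64 CPM (n = 3 each, edgeR).

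Farther out the values spread. PARM1 fell by 2.33 and BTC, which encodes the EGF receptor ligand betacellulin, by 1.06, both past the threshold, and ANKRD17 fell by 0.50. ALB, the albumin gene, rose 1.29-fold (135.7 ± 5.87 to 173.7 ± 5.24 CPM). AFP (log2 fold change -0.27, edgeR adjusted p = 0.0843) and COX18 (-0.02, edgeR adjusted p = 0.847) were not called. AREG, which encodes amphiregulin, had 10 counts in shNTC and 0 in shNEDD9, while its neighbour EREG had 1 count in all. Chemokine genes of the same cluster at or under the floor in both groups were PPBP with 0 counts, PF4 with 1 count in each group and CXCL6 with 2 counts in shNTC. PF4V1, a near-copy of PF4, had 1 count in shNTC and 10 in shNEDD9, with overlapping libraries. Genes that share a stretch of chromosome are not independent of each other.

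**Figure D3:**
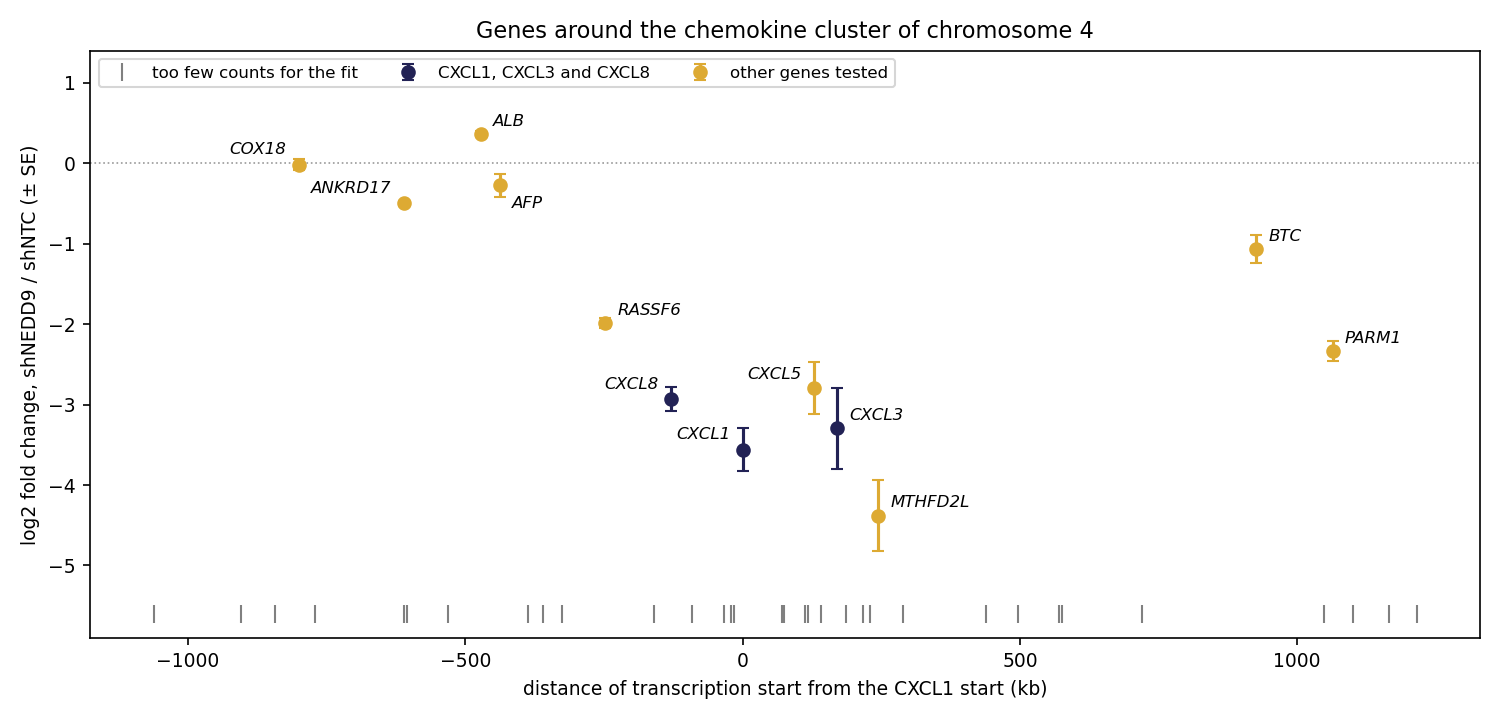
Log2 fold change ± SE (vertical) of the tested genes on chromosome 4 against the distance of their start from that of CXCL1 in kb (horizontal); dark points are CXCL1, CXCL3 and CXCL8, light points other genes, and grey ticks genes with too few counts for the fit. CXCL8, CXCL1, CXCL5, CXCL3 and MTHFD2L lie between -2.79 and -4.38, whereas COX18, AFP and ALB lie between -0.27 and 0.37.

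Other chemokine ligand genes, in the cluster and outside it, were also lower. Of 38 further chemokine ligand genes, 22 had any counts and 5 were tested. Over every gene tested, 35.9% were lower and the log2 median was 0.00. Of the 5, 4 fell (80.0%, median -1.77), CXCL5 of the cluster among them, and 1 was not called. Those outside the cluster were CXCL10 and CXCL11, ligands of CXCR3 that interferons induce, and the monocyte chemokine gene CCL2, which is named although the rule for named genes did not take it. CXCL10 stood at 11.3, 10.0 and 10.3 CPM in shNTC and 2.51, 3.04 and 3.52 CPM in shNEDD9 (log2 fold change -1.77, SE 0.20, edgeR adjusted p = 4.85e-19). CCL2 fell by 1.72 (SE 0.15), from 16.7 ± 0.913 to 5.11 ± 0.308 CPM (edgeR adjusted p = 3.55e-28). CXCL11 fell by 2.28 (SE 0.40), but 11 of its 14 shNEDD9 counts lay in replicate 3, without which its log2 fold change was -3.63. CCL28, an epithelial chemokine gene, stood at 20.1 ± 0.787 and 22.8 ± 1.15 CPM and was not called (edgeR adjusted p = 0.103). CXCL5 and CXCL11 passed the count filter through shNTC alone.

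Among 66 other cytokine genes, 45 had counts and 11 were tested. Of these, 1 rose (9.09%, against 35.5% of all genes tested) and 5 fell (45.5%, against 35.9%), with a median of -0.01. Classical inflammatory cytokines were at the floor: IL1A had 1 count, IL1B 1 count in each group, and IL6 none. The antagonists IL1RN and IL36RN of the IL-1 family fell, with log2 fold changes of -2.05 and -1.62 (edgeR adjusted p = 4.76e-19 and 1.67e-11). IL1RN stood at 8.04, 9.40 and 9.20 CPM in shNTC and at 3.01, 2.03 and 1.61 CPM in shNEDD9. CLCF1, an IL-6 family cytokine gene like LIF, fell by 1.31 (10.8 ± 1.03 to 4.25 ± 1.23 CPM, edgeR adjusted p = 1.33e-12). The gene that rose was TNFSF15 (1.11-fold, edgeR adjusted p = 0.0181), and its groups overlapped. Its call was lost with DESeq2, without shNTC replicate 2 and without shNEDD9 replicate 3 (adjusted p = 0.0929, 0.219 and 0.0895).

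Of the listed receptors through which epithelial cells switch on these chemokines, 16 were tested. Of these, 14 fell (87.5%, against 35.9% of all genes tested) and 2 rose (12.5%, against 35.5%). Their median log2 fold change was -0.63. TLR4, the receptor of bacterial lipopolysaccharide, stood at 14.9, 10.6 and 11.9 CPM in shNTC and 1.17, 1.14 and 1.71 CPM in shNEDD9, a 9.21-fold decrease (edgeR adjusted p = 7.62e-46). The prostaglandin receptor gene PTGER4 was 4.48-fold, the TNF receptor gene TNFRSF1A 2.86-fold, IL1R1 2.04-fold and IL17RA 1.45-fold lower. TLR3, a sensor of double-stranded RNA, and IL17RB rose by 0.56 and 0.59 on the log2 scale. TLR2 had 1 count. Of the 16, TLR4 and TNFRSF1A passed the count filter through shNTC alone.

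All 32 listed genes of the NF-kB pathway were tested, of which 18 fell (56.25%, against 35.9% of all genes tested) and 4 rose (12.5%, against 35.5%), with a median of -0.35. In either direction, the share called was near the 71.4% of all genes tested. The adaptors IRAK2 and MYD88 were 3.43-fold and 2.53-fold lower. NFKBIZ, an inducible co-activator of chemokine genes, fell by 1.47 on the log2 scale (17.1 ± 1.80 to 6.28 ± 0.616 CPM, edgeR adjusted p = 2.19e-23), and the feedback inhibitor TNFAIP3 fell by 1.19. The subunit genes moved less, with RELA lower by 1.44-fold and NFKB1 by 1.24-fold, and NFKBIA, the classical inhibitor and target, by 1.33-fold. TRAF2 (1.59-fold), IRAK1 and TAB1 rose, and TAB1 lost its call without shNTC replicate 3 (edgeR adjusted p = 0.0602).

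C/EBP and AP-1 factors split. Of 15 tested, 8 rose and 6 fell (median 0.23). CEBPB, a factor of many inflammatory promoters, rose 3.97-fold (20.2 ± 0.960 to 79.8 ± 5.23 CPM, n = 3 each), CEBPG by 1.82 on the log2 scale and ATF3 9.31-fold, whereas FOSL2 was 4.12-fold, FOS 4.93-fold and JUNB 2.94-fold lower. FOS passed the count filter through shNTC alone. The list of mRNA decay held 18 tested genes, not all of which bind AU-rich sequences. Of these, 10 rose (55.6%, against 35.5% of all genes tested) and 6 fell (33.3%, against 35.9%), with a median of 0.26. The decay factors ZFP36 and ZC3H12A, which NF-kB signalling itself induces, were 2.71-fold and 2.82-fold lower, and DCP2 and KHSRP rose by 0.82 and 0.70 on the log2 scale.

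**Figure D4:**
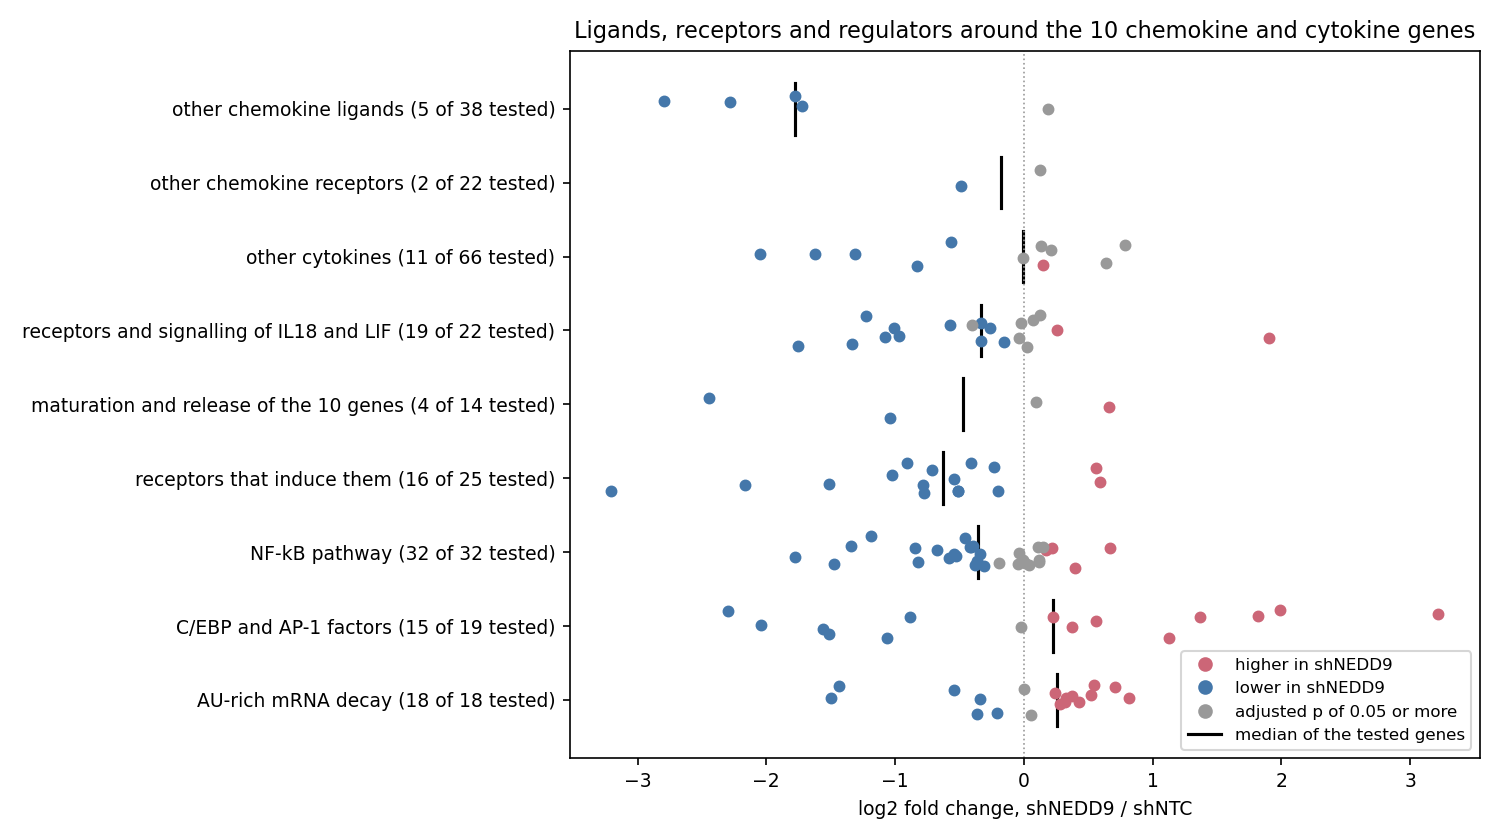
Log2 fold change of every tested gene (points, horizontal axis) in 9 lists of ligands, receptors and regulators (rows); red points rose, blue points fell, grey points were not past the threshold, and black bars are medians. The points of receptors that induce the chemokines and of the NF-kB pathway lie mostly below 0, and C/EBP and AP-1 factors lie on both sides.

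The promoter word shown above was followed across the table. Leaving out the 10 members and the listed chemokine ligands, 46 tested genes had GGAATTTCC in the 250 bases before a RefSeq start, and 10 of them were higher and 22 lower (47.8% lower, with a median of -0.24). Among the 10291 tested genes with a RefSeq promoter, 36.7% were higher and 36.9% lower (median 0.00). For the kappaB motif, 279 of 821 such genes were higher and 348 lower (42.4% lower, median -0.08). These counts describe the genes that hold the letters, and the word was chosen with the chemokines' values known.

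AU-rich words were counted in the last 500 bases of each gene's transcript beyond the stop codon, taking the annotated transcript with the longest coding sequence. TTATTTATT occurred there in CXCL1, CXCL2, CXCL3 and LIF and in 3.28% of 11761 protein-coding genes with so long an end. ATTTA occurred 5 times in CXCL2 and CXCL3, as often or more often in 2.70% of all genes, 3 times in CXCL8 and LIF (16.2%), 2 times in CXCL1 (34.1%) and 0 times in CXCL16. The window misses words farther upstream. Over the whole end, ATTTA occurred 5 times in CXCL1, 10 in CXCL2, 7 in CXCL3 and LIF, 9 in CXCL8 and 1 in CXCL16. TTATTTATT occurred 3 times in CXCL1, 5 in CXCL2, 1 in CXCL3 and CXCL8 and 2 in LIF. Whole ends differ in length and were not set against all genes. CCL20, IL18 and IL32 have shorter ends and were not compared.

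The 3 genes outside the group whose levels over the 6 libraries followed CXCL1 most closely were TMEM200A, SULF2 and MS4A8 (root mean square difference of centred log2 CPM, with a prior count of 2, 0.286 to 0.312, among 13935 genes). Their fitted log2 fold changes of -4.79, -4.29 and -5.22 were larger than the -3.56 of CXCL1, so the match is loose. For CXCL16 they were UVRAG, EIF2B4 and SENP5 (0.0362 to 0.0439). For LIF, whose pattern rests on 6 counts, they were ADRA2C, CICP14 and PYGO1 (0.0801 to 0.117).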

How the data were processed

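The 6 VCaP libraries were made with a stranded kit for total RNA (TruSeq), per the labels. The authors deposited raw counts per gene, whole and not normalised. The submitters' processing notes list STAR 2.5.3a, Subread 1.6.2 with featureCounts, cutadapt 1.9 and FastQC 0.11.5, and hg19 and GRCh38 as builds; the strand setting and the handling of reads shared by genes are not given in the sources used here. All 58735 identifiers occur in GENCODE 29 (GRCh38), the source of coordinates and exon lengths; 1 row without an identifier was left out.

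Groups were compared in R 4.3.3 by edgeR 4.0.16 and its quasi-likelihood test (TMM factors 0.99 to 1.01, robust estimation, filterByExpr at a minimum count of 10, no covariate). Benjamini-Hochberg adjustment ran over the 13958 genes left, and genes with an adjusted p below 0.05 count as called (4949 higher, 5014 lower). The procedure was run on simulated counts in which far fewer genes were changed than were called here. The changed genes were drawn from genes with more counts than most members have, and no result here rests on that run. Nothing says that the triplicates came from separate cultures beyond the word biological in the design text, so the p-values reflect only the spread among these libraries, possibly technical (common biological coefficient of variation 1.65%). Ratios of summed counts have exact conditional 95% intervals. RPKM is CPM per kilobase of merged exons. Fitted fold changes are moderated by edgeR's prior count. The SE of a fold change is the unmoderated log2 fold change over the square root of F.

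The members, the gene lists, the tests and the rule for named genes were chosen with earlier results of these data known. The rule took the members, 33 genes by prior choice, and from each list up to 3 called genes in each direction with the largest fold change at a mean of at least 1 CPM, with the tested chromosome 4 neighbours and the 3 nearest patterns of CXCL1, CXCL16 and LIF. CCL2, CCL28, IL1A, IL1B, IL6, PF4V1, CD14, COL1A2, COL3A1 and the markers at 0 fall outside it and were named after their values were seen. The promoter motifs and AU-rich words were also searched after the counts were known. Alternatives were RLE and upper-quartile factors, no count filter, a mean of at least 1 CPM, DESeq2 1.42.0, limma-voom (limma 3.58.1), the replicate number as a block, and each library left out in turn.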

Additional observations from a re-analysis of the deposited data

How the results depend on the processing

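Results were recomputed under 13 alternatives. The 5 fitted members kept their direction in all of them: 62 of 65 values lay within 1 SE of the reported log2 fold change, and the others were CXCL1 without shNEDD9 replicate 2 or 3 (-4.27 and -3.10) and CXCL8 without shNEDD9 replicate 2 (-2.76). Of 858 values of 66 other named genes, 844 kept their side of the threshold, 13 lost it, 1 gained it and 0 were reversed. COL1A1, a fibroblast marker, was among those lost, as were LIFR and TNFSF15. Of 312 counts of calls, 307 stayed within 1.5 times the reported count. Without a count filter 3 other cytokines and 1 other chemokine receptor were called higher, and with DESeq2 0 other cytokines were (TNFSF15 at an adjusted p of 0.0929); leaving out a library gave 0 to 2 other cytokines called higher. DESeq2 called 4244 genes higher and 4311 lower.

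The replicate number as a block gave 4875 higher and 4952 lower calls. The deviations of same-numbered libraries had correlations of -0.0318, 0.00687 and 0.0284 over 9964 genes. Not every library correlated best with its own number. Replicate pairs differed by little more than counting error (chi-square over degrees of freedom 1.14 to 1.20). With so small a spread, the correlations cannot tell whether the numbers pair the libraries.

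Depth limits CXCL2, CXCR4, IL18, IL32 and LIF, none of which reached the fitted set. The stretches that CXCL1, CXCL2 and CXCL3 share limit how their counts can be split among them.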
